A study of Homo sapiens with 6 samples.

Results

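The proteasome genes measured here are the 49 genes, of 18365 on the array, whose platform symbol starts with PSMA to PSMG followed by a number. They were taken by name from probes with a single symbol, using for each gene the probe that was brightest on average across the 6 arrays. RNA came from LX2 cells, an established line of human hepatic stellate cells, the collagen-depositing cells of the liver. In the Syy group (3 arrays) the cells had received Syy, a molecule known here only by its code name, which the submitters describe as a blocker of secretion by these cells. The control group (3 arrays) is labelled as control, with no vehicle named, and the sources used here do not give the dose or the duration of treatment. All samples came from the same line, and the labels do not say that they were separate cultures, so the p-values reflect only how these samples vary, and that variation could be technical.

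The proteasome is the large protease that degrades ubiquitin-tagged proteins in the cytosol and nucleus. Its barrel-shaped core is built of stacked rings, the outer ones of alpha subunits and the inner ones of beta subunits, some of which carry the active sites. A regulatory cap recognises ubiquitin, removes it and threads the protein into the barrel with a ring of ATPases. Interferon replaces the catalytic beta subunits by those of the immunoproteasome, which favours peptides for display on class I molecules. When proteasome activity falls short, the transcription factor NRF1, encoded by NFE2L1, raises the transcription of most subunits together.

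Values are log2 of the deposited intensity plus 16, quantile normalized over the arrays, so the floor of the scale lies near 4. A gene was called where limma's two-sided test gave a Benjamini-Hochberg adjusted p under 0.05 over all 18365 genes. Fold changes are on this log2 scale and understate the change of dim genes.

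The labelled cell type was checked first. Of 12 stellate cell markers 10 lay above the median of all probes, with VIM between 14.80 and 15.43 and ACTA2 between 11.79 and 12.53 over the 6 arrays, while DES was at the floor (4.32 to 4.51). Transcripts of hepatocytes stood out on Syy replicate 3. Of 17 such markers, 14 exceeded their average in Syy replicates 1 and 2 by more than 1 log2 unit. Their summed log2 level was 14.97 there, 9.49 in Syy replicate 1, 10 in Syy replicate 2 and between 9.73 and 10.07 in controls. Of the 17, SERPINA1 alone was called. It read 5.96, 6.72 and 7.67 with Syy and 5.19 in every control (adjusted p = 0.0436), so its difference was not confined to Syy replicate 3. Values without Syy replicate 3 are given beside each called member. Of the 39 uncalled members PSMA4 alone passed without it, and of 14 called genes outside the rule 13 stayed called. Among 7 macrophage and leucocyte markers, PTPRC (4.09 to 4.26) and LYZ (4.09 to 4.26) were near the floor on every array, and CD14 was higher with Syy (11.19 to 11.46 against 10.53 to 10.75, adjusted p = 0.00661). The summed level of that list, carried mostly by CD14, ran from 11.55 to 11.74 with Syy and from 10.95 to 11.14 in controls. PTPRC (-0.06), CD163 (0.03), LYZ (0.08) and CD68 (0.12) changed little, and CD74 (0.73) and HLA-DRA (0.83) were higher without being called. The part of these markers in the results on the immunoproteasome was not tested.

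The promoters below show the genes on which the description turns: PSMC6 and PSMF1, with the largest fall and rise, and the 3 inducible immunoproteasome subunits PSMB8, PSMB9 and PSMB10, of which PSMB9 alone was called. The sequences are from RefSeq (GRCh38.p14), 250 bases before to 50 after each annotated start, 5′ to 3′ on the strand of the gene. PSMB8 and PSMF1 have 2 annotated starts each. Capitals mark matches, on either strand, to TGACNNNGC, the core of the antioxidant response element that NRF1 and its relative NRF2 bind, or to GAAA, any 2 bases and GAAA again, a core of the interferon-stimulated response element bound by IRF factors.
PSMC6 (chr14:52706950-52707249, plus strand): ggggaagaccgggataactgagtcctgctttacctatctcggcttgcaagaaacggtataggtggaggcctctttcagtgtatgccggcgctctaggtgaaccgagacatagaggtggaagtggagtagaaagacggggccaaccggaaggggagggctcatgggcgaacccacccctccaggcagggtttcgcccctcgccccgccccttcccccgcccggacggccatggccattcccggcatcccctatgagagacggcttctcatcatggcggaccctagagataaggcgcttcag
PSMF1, first start (chr20:1113013-1113312, plus strand): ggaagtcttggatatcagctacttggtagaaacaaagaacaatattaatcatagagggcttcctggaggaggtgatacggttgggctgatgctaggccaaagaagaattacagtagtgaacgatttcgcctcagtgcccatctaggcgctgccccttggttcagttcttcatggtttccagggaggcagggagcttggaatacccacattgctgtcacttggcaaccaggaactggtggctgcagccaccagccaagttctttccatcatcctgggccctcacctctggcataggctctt
PSMF1, second start (chr20:1118352-1118651, plus strand): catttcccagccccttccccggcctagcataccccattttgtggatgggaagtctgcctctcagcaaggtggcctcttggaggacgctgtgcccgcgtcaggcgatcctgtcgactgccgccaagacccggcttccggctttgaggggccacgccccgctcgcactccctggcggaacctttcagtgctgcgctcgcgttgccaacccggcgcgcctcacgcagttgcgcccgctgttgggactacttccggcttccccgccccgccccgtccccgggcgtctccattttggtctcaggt
PSMB8, first start (chr6:32844630-32844929, minus strand): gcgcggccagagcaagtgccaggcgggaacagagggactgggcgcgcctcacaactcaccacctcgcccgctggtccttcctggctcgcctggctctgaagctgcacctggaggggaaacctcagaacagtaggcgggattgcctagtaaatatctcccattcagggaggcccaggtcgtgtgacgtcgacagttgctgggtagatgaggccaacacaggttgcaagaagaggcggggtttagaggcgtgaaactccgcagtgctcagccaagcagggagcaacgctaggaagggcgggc
PSMB8, second start (chr6:32843998-32844297, minus strand): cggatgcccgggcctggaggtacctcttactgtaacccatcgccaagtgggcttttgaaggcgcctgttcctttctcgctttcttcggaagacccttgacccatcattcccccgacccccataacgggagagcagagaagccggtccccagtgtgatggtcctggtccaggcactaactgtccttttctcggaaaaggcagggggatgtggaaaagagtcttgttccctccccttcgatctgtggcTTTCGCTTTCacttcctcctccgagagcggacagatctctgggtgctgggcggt
PSMB9 (chr6:32853942-32854241, plus strand): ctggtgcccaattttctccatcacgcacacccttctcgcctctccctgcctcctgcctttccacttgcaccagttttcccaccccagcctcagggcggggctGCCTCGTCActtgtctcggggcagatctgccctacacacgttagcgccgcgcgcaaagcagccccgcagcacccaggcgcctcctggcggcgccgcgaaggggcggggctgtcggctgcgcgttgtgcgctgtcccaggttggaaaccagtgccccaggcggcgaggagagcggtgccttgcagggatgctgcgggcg
PSMB10 (chr16:67936801-67937100, minus strand): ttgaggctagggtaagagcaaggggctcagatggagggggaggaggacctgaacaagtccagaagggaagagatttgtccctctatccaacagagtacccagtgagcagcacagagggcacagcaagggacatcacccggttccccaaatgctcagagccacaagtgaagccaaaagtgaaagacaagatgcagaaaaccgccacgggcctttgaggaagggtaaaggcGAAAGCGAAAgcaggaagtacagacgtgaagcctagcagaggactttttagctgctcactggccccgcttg

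Promoters were matched by symbol for 43 of the 49 genes, of which 9 have several annotated starts. A match to TGACNNNGC in any start was present in 15 of the 43 (34.9%) and in 16.1% of all 27305 genes with a promoter. It was present in 0 of the 3 called members that were higher with Syy, in 2 of the 6 that were lower (PSMB9 and PSME4) and in 13 of the 34 that were not called. The spaced GAAA pair was present in 7 of the 43 (16.3%) and in 4.38% of all genes. Its holders were PSMA4, PSMB4, PSMB8, PSMB10, PSME1, PSME2 and PSMG4, none of them called. In PSMB10 the match began 21 bases before the start and in the second start of PSMB8 4 bases before it. In PSMB9 the TGACNNNGC match, read on the opposite strand, began 148 bases before the start. PSMC6 and both starts of PSMF1 hold neither run of letters in these windows. A match is a run of letters, not a measured binding site.

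With Syy, 3 of the 49 members rose and 7 fell, and 39 did not pass the test. The share called, 20.4%, was near that of all genes, of which 22.4% were called (11% higher and 11.5% lower). Among genes above the median of all probes, where 46 of the members lie, 33.7% were called. A fit of those genes alone called 23.9% of the 46 members and 37.6% of the genes, so members passed less often there. PSMF1, PSMD11 and PSMD2 were higher, and PSMC6, PSMA3, PSME4, PSMG3, PSMD14, PSMB9 and PSMD8 were lower. The median log2 fold change of the 49 was -0.03, against 0 for all genes. Changes of less than 0.25 were seen in 33 members and in 63.2% of all genes. That share is not matched for level, since 6280 of all genes had a mean below 5. The middle 50% of those ran from -0.054 to 0.064. It ran from -0.308 to 0.297 at levels of 11 to 12 and from -0.088 to 0.066 above 15. In 18 members the 3 Syy values lay wholly above (6) or wholly below (12) the 3 control values, against 18.9%, 19.4% and, in either direction, 38.3% of all genes. In RNA of whole cultures, fewer cells of a kind and less RNA per cell cannot be told apart.

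**Figure D1:**
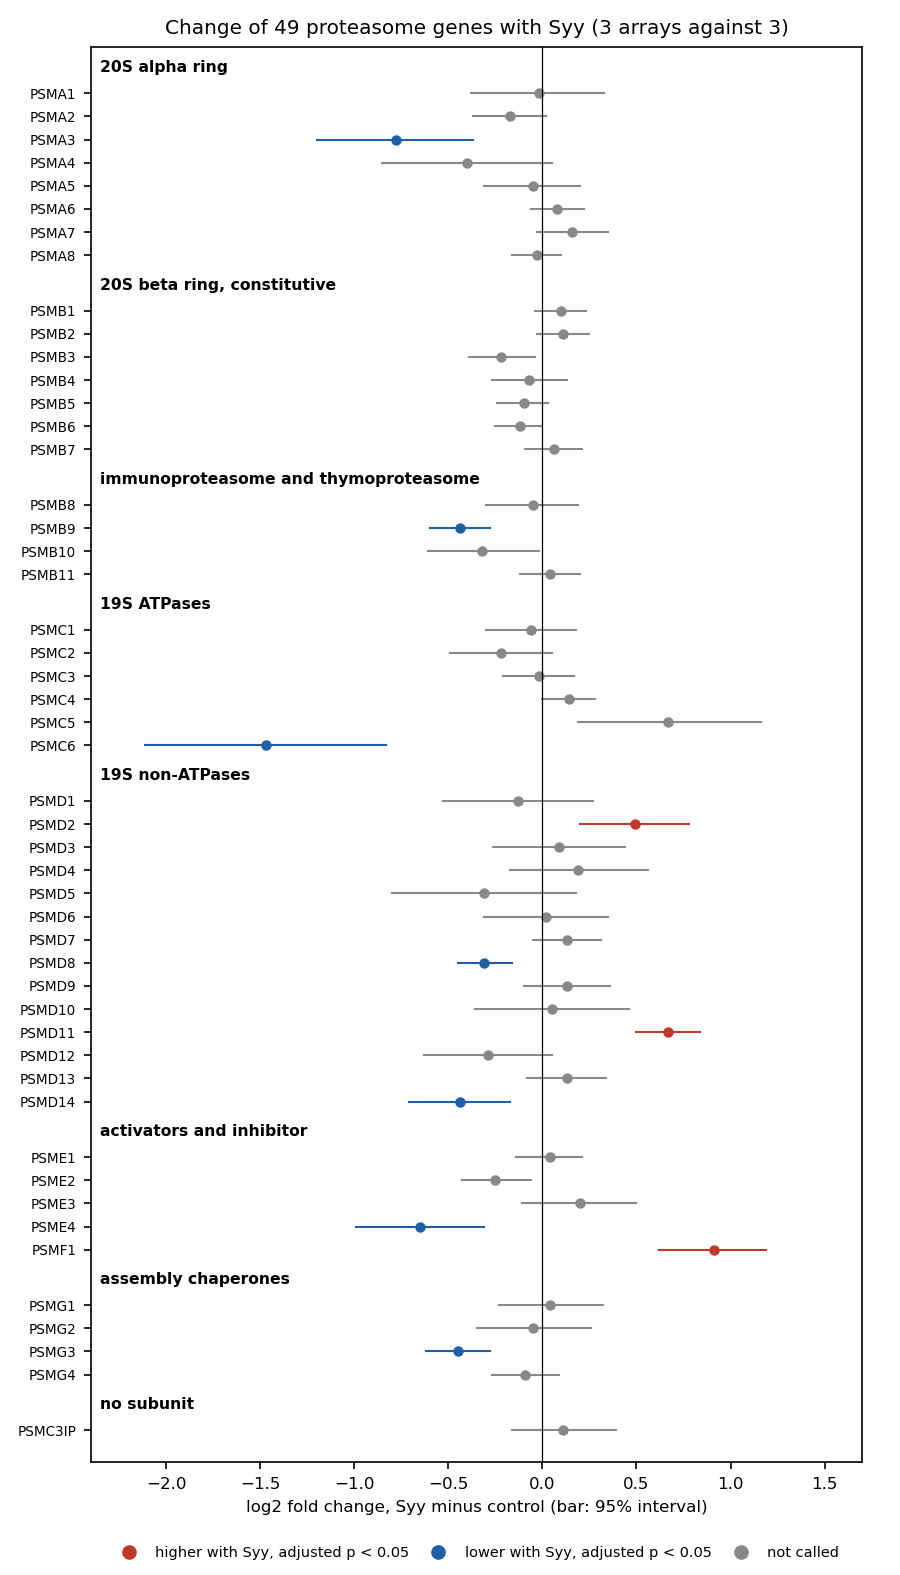
Log2 fold change (Syy minus control, horizontal axis) of each of the 49 genes, grouped by role, with its 95% interval from limma and 3 arrays per group. Most points lie close to 0; PSMC6, at -1.47, is the farthest below and PSMF1, at 0.91, the farthest above.

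These counts depended on single arrays and on the scaling. The 7 lower members became 4 without Syy replicate 2, 2 without control replicate 1 and 3 without control replicate 2 or 3. In that order 14.3%, 8.16%, 12.2% and 10.2% of members were called, and 14.6%, 12.8%, 12.7% and 13.4% of all genes. Without Syy replicate 3, 2 members were higher and 8 lower (20.4% called, the share of all genes too). Median centring gave 3 higher and 13 lower (32.7%, against 22.6% of all genes). Without any rescaling of the deposited values 6 were higher and 5 lower (22.4%, against 21.2% of all genes). Of all called genes 48.9% were higher in the main fit, 60% after median centring and 81% as deposited. Only PSMD11 and PSMF1 were called in all 15 alternatives that were run.

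Of the 15 core genes (alpha and constitutive beta), 1 fell and none rose (6.67% called). Of all genes 22.4% were called, and of those above the median of all probes 33.7%. In the main scaling 13 of the 15 changed by less than 0.25. The 13 include PSMA8, which was at the floor and could not be read. The alpha ring, whose subunits gate the entry to the barrel, held the called gene. PSMA3, an alpha subunit, read 11.49, 11.57 and 11.93 with Syy and 12.71, 12.42 and 12.22 in the controls. All Syy values lay below all control values, and the difference was -0.78 ± 0.17 (SE, adjusted p = 0.0239). It was -0.92 without Syy replicate 3. The call was lost without Syy replicate 1 (-0.70, adjusted p = 0.0739), Syy replicate 2 (-0.74, 0.0821), control replicate 1 (-0.65, 0.0671) or control replicate 2 (-0.79, 0.0798).

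The other 7 alpha genes were not called. They ran from -0.40 (PSMA4) to 0.16 (PSMA7), and their intervals overlapped 0. PSMA4 read 13.76, 13.92 and 14.40 with Syy and 14.55, 14.49 and 14.25 in the controls, so that Syy replicate 3 lay within the control range. Without that array PSMA4 passed (-0.59, adjusted p = 0.034). PSMA8, the alpha subunit of the testis, was at the floor, with deposited intensities from 0.0 to 1.0.

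The 7 constitutive beta genes all stayed within 0.25 of 0, from -0.22 (PSMB3) to 0.11 (PSMB2). PSMB5, which carries the chymotrypsin-like activity that proteasome inhibitor drugs target, read 15.13, 15.03 and 15.07 with Syy and 15.17, 15.13 and 15.24 in the controls. PSMB6, with the caspase-like activity, read 15.38, 15.29 and 15.34 with Syy and 15.42, 15.47 and 15.50 in the controls. PSMB7, with the trypsin-like activity, read 15.45, 15.26 and 15.36 with Syy and 15.28, 15.29 and 15.32 in the controls. The groups overlapped for PSMB5 and PSMB7, and for PSMB6 the Syy values lay just below the controls (-0.12, 95% interval -0.25 to 0.00, adjusted p = 0.148). The 95% intervals were -0.24 to 0.03 for PSMB5 and -0.09 to 0.21 for PSMB7. These probes were bright, and the highest reading of any member, from PSMB6, was 50511 scanner units, below the ceiling of about 65523 that the brightest probes reached. After median centring PSMB3 (-0.36, adjusted p = 0.0491), PSMB5 (-0.32, 0.0472) and PSMB6 (-0.37, 0.0236) passed. PSMB4 read -0.33 there and did not pass (0.0615).

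Of the 4 subunits of the immunoproteasome and thymoproteasome, 1 fell and none rose (25% called, against 22.4% of all genes). Their median was -0.18, and differences between these genes were not tested. PSMB9, which replaces PSMB6 and is also known as LMP2, read 12.85, 12.77 and 12.68 with Syy and 13.16, 13.19 and 13.27 in the controls. The groups did not overlap, and PSMB9 was 1.36-fold lower (-0.44 ± 0.06, SE, adjusted p = 0.00829), or -0.39 without Syy replicate 3 (adjusted p = 0.0181). Without Syy replicate 3 and control replicate 2 together it did not pass (-0.40, adjusted p = 0.0696). PSMB10, which replaces PSMB7, read 8.76, 8.47 and 8.34 with Syy and 8.75, 8.83 and 8.93 in the controls. Syy replicate 1 lay within the control range, and the difference of -0.32 did not pass (adjusted p = 0.122). It was -0.43 without Syy replicate 1 and passed there (adjusted p = 0.0315), -0.02 in the deposited scaling (0.932) and -0.15 after median centring (0.376). PSMB8, which replaces PSMB5, read 10.97, 10.77 and 10.61 with Syy and 10.81, 10.82 and 10.88 in the controls, and did not pass either (-0.05, 95% interval -0.30 to 0.19). The second probe of PSMB8 read -0.25 ± 0.16 (SE) and was not called. PSMB11, the beta subunit of the thymus, was near the floor, between 4.17 and 4.36.

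**Figure D2:**
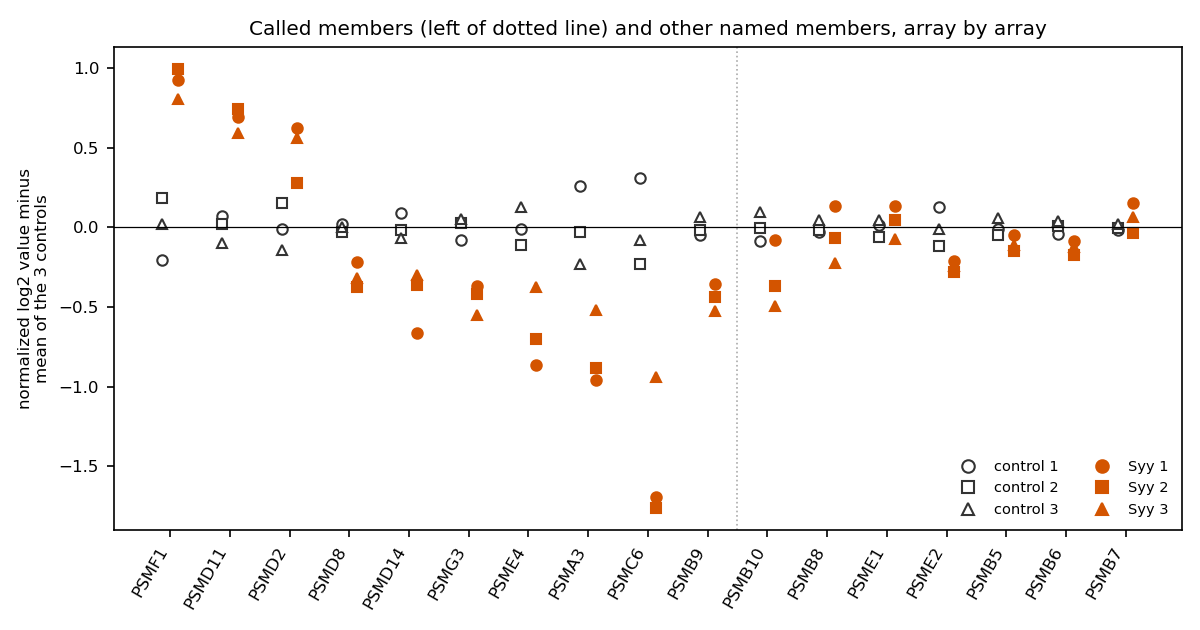
Normalized log2 value of each array minus the mean of the 3 controls (vertical axis) for the 10 called members, left of the dotted line, and 7 others; open symbols are controls, filled symbols Syy, and the shape gives the replicate number. The Syy values of called members lie clear of the controls, and those of PSMB10, PSMB8, PSME1, PSMB5 and PSMB7 overlap them.

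Of the 20 genes named as subunits of the cap 2 rose and 3 fell (25% called), from -1.47 to 0.67, with a median of 0.04. This was the widest range, but its lower end was PSMC6 alone, and PSMD14 came next at -0.44. The 5 activators and inhibitors ran from -0.65 to 0.91. Without PSMD5, PSMD9 and PSMD10, which act in assembly of the cap, these cap calls were among 17 genes (29.4%). Of all genes 22.4% were called, and of those above the median of all probes 33.7%. Among the 6 ATPases, which unfold substrates, PSMC6 (also known as RPT4) read 9.50, 9.43 and 10.25 with Syy and 11.50, 10.96 and 11.11 in the controls. The groups did not overlap, and PSMC6 was 2.77-fold lower (-1.47 ± 0.26, SE, adjusted p = 0.0138), the largest change of any member. Syy replicate 3 lay closest to the controls. Without it the change was -1.75, and without Syy replicate 3 and control replicate 2 together it was -1.85 (adjusted p = 0.0451). The call was narrowly lost without control replicate 1 (-1.31, adjusted p = 0.0533) or control replicate 3 (-1.49, 0.0516). PSMC6 has a single probe here.

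PSMC5 (RPT6), another ATPase, read 14.14, 14.11 and 14.03 with Syy and 13.67, 12.96 and 13.63 in the controls. The groups did not overlap, but control replicate 2 lay well below its group, and the difference of 0.67 did not pass (adjusted p = 0.0615). Without control replicate 2 it was 0.44 and passed (adjusted p = 0.0219). The remaining ATPases ran from -0.22 (PSMC2) to 0.14 (PSMC4), none called.

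Of the 14 genes named as non-ATPase subunits, 11 without the 3 assembly chaperones, PSMD11 and PSMD2 rose and PSMD14 and PSMD8 fell. The called share was 28.6% of the 14 and 36.4% of the 11. It was 22.4% of all genes and 33.7% of those above the median of all probes. PSMD11 (RPN6), a scaffold that clamps cap and core together, read 11.30, 11.35 and 11.20 with Syy and 10.68, 10.63 and 10.51 in the controls. It was 1.59-fold higher (0.67 ± 0.07, SE, adjusted p = 0.00344), with groups well apart, and 0.72 higher without Syy replicate 3. PSMD2 (RPN1), a docking site for ubiquitin shuttles, read 14.67, 14.33 and 14.61 with Syy and 14.04, 14.20 and 13.91 in the controls. Its rise of 0.49 ± 0.12 (SE, adjusted p = 0.0353) was the least stable call. It passed in 7 of 15 alternatives and was lost after median centring (0.31, adjusted p = 0.112). It was also lost without Syy replicate 1 (0.43, adjusted p = 0.093), Syy replicate 3 (0.46, 0.0905), control replicate 1 (0.48, 0.113), control replicate 2 (0.56, 0.0585) or control replicate 3 (0.42, 0.107).

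PSMD14 (RPN11), the deubiquitinase that cuts ubiquitin off substrates as they enter, read 10.27, 10.57 and 10.63 with Syy and 11.02, 10.91 and 10.86 in the controls. Its fall of 0.44 on the log2 scale (SE 0.11, adjusted p = 0.0366) left no overlap between the groups, and without Syy replicate 3 it was -0.52 (adjusted p = 0.0399). The call was lost in the values as deposited (-0.25, adjusted p = 0.2), without Syy replicate 2 (-0.48, 0.075) and without control replicate 1 (-0.39, 0.12), 2 (-0.45, 0.106) or 3 (-0.47, 0.0832). PSMD8 (RPN12), a subunit of the lid of the cap, read 13.85, 13.69 and 13.75 with Syy and 14.09, 14.04 and 14.07 in the controls. The difference was small but exceeded the spread within the groups (-0.31 ± 0.06, SE, adjusted p = 0.0171). Leaving out control replicate 1, 2 or 3 took its adjusted p to 0.0588, 0.0513 and 0.0614. Without Syy replicate 3 it stayed called (-0.30, adjusted p = 0.0437).

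The ubiquitin receptor PSMD4 (RPN10) read 12.92, 12.43 and 12.76 with Syy and 12.56, 12.33 and 12.63 in the controls, with overlapping groups (0.19, adjusted p = 0.417). A probe annotated to both PSMD4 and PIPSL was left out by the rule and read -0.01. The 9 other non-ATPase genes ran from -0.31 (PSMD5) to 0.13 and were not called. PSMD5, PSMD9 and PSMD10 bear subunit names but act as chaperones that assemble the base of the cap; they read -0.31, 0.13 and 0.05. PSMD9 lay close to the floor, between 4.96 and 5.33.

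Of the 5 activators and inhibitors of the core, 1 rose and 1 fell (40% called). Of all genes 22.4% were called, and of those above the median of all probes, where all 5 lie, 33.7%. PSMF1, which encodes PI31, first described as an inhibitor of the core, read 9.92, 9.99 and 9.80 with Syy and 8.79, 9.18 and 9.02 in the controls. It was 1.87-fold higher (0.91 ± 0.11, SE, adjusted p = 0.00563), with the groups far apart and a change of 0.96 without Syy replicate 3. Its second probe changed less (0.26 ± 0.11, SE, adjusted p = 0.164 over all probes) and was not called. With the mean of both probes PSMF1 changed by 0.58 and stayed called (adjusted p = 0.00697).

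PSME4, which encodes PA200, an activator of the nucleus, read 5.45, 5.61 and 5.94 with Syy and 6.30, 6.20 and 6.44 in the controls, not far above the floor. It was 1.57-fold lower (-0.65 ± 0.14, SE, adjusted p = 0.0242) and -0.77 without Syy replicate 3. The call was lost without Syy replicate 1 (-0.54, adjusted p = 0.0569), Syy replicate 2 (-0.61, 0.0813), control replicate 1 (-0.66, 0.0808), 2 (-0.71, 0.0615) or 3 (-0.60, 0.0858). Its second probe was at the floor (4.09) on every array. With the mean of both probes the change was -0.32 (adjusted p = 0.0327).

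PSME1 and PSME2 encode the interferon-inducible activator PA28, whose subunits form a mixed ring. PSME1 read 12.60, 12.51 and 12.39 with Syy and 12.48, 12.40 and 12.51 in the controls. PSME2 read 13.23, 13.16 and 13.20 with Syy and 13.57, 13.32 and 13.43 in the controls. PSME1 overlapped between the groups (0.04, 95% interval -0.14 to 0.21), while the Syy values of PSME2 lay below the controls without passing (-0.25, adjusted p = 0.0692; 0.0399 after median centring). PSME3, the related activator of the nucleus, read 6.90, 7.26 and 6.84 with Syy and 6.75, 6.79 and 6.88 in the controls and did not pass (0.20, adjusted p = 0.328).

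Of the 4 chaperones that assemble the core (25% called, against 22.4% of all genes), PSMG3 (PAC3) fell. It read 10.93, 10.88 and 10.75 with Syy and 11.22, 11.33 and 11.35 in the controls, a difference of -0.45 ± 0.07 (SE, adjusted p = 0.00929) without overlap. Without Syy replicate 3 it was -0.40 (adjusted p = 0.0185). Its second probe read -0.60 ± 0.20 (SE) and was not called (adjusted p = 0.0985 over all probes). In the values as deposited the change was -0.29 and did not pass (adjusted p = 0.0698). PSMG1, PSMG2 and PSMG4 read 0.04, -0.05 and -0.09. PSMC3IP, which the rule takes by its symbol, encodes a protein of meiotic recombination and no subunit; it read 0.11 (adjusted p = 0.541).

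Probes of the same gene did not always give the same verdict. Of the 49 members, 32 had 1 probe, 15 had 2 and 2 had 3. A further probe above the array's median was present in 15 members. The verdicts, adjusted over all probes, were the same in 11 of these and mixed in 4, namely PSMA2, PSMC2, PSMF1 and PSMG3. The probes of 9 of the 15 had changes of the same sign. The second probe of PSMA1 read 0.63 against -0.02 for the first and was not called; it was at 8.17 on Syy replicate 2 and between 5.43 and 5.87 on the other arrays. The third probe of PSMA2 read 9.18, 9.30 and 9.69 with Syy and 10.39, 10.27 and 10.20 in the controls (-0.90 ± 0.14, SE, adjusted p = 0.0133), while the other probes read -0.17 and -0.13. The third probe of PSMC2 read 7.13, 7.06 and 7.32 with Syy and 8.12, 7.88 and 7.97 in the controls (-0.82, adjusted p = 0.00603), while the others read -0.22 and 0.10. In both genes the probe that fell was the dimmest. Which transcripts each probe reads was not tested, since probe sequences were not used here. RefSeq lists named pseudogenes for 21 of the members, among them the called PSMA3, PSMC6, PSMD2, PSMD8, PSMD14 and PSMG3, and their share in these signals was not tested.

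**Figure D3:**
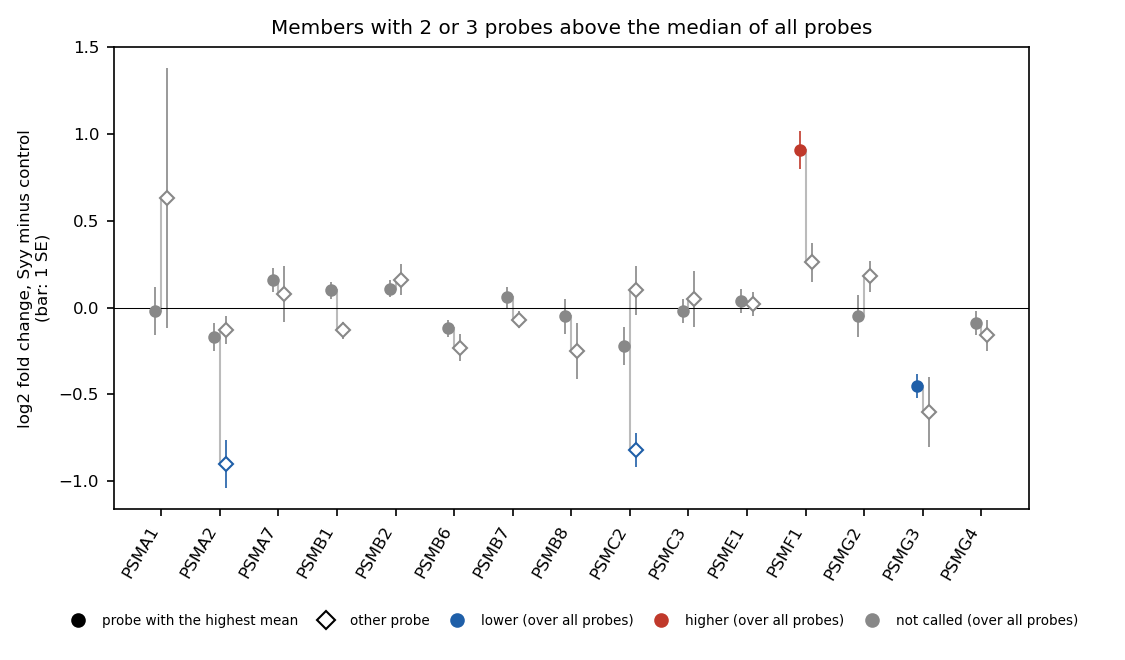
Log2 fold change (Syy minus control, vertical axis, bar 1 SE) of every probe above the median of all probes for the 15 members with at least 2 such probes; circles are the probes that represent the gene and diamonds the others. A diamond stands apart from its circle for PSMA1 (0.63), PSMA2 (-0.90), PSMC2 (-0.82) and PSMF1 (0.26).

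Set against genes of like brightness, in bins 1 log2 unit wide, 6 of the 49 members lay outside the middle 90% of genes. This count is near the share that such a band leaves out by its definition. PSMF1 and PSMC5 lay above the band, and PSMC6, PSMA3, PSMA4 and PSME4 below. PSMC5 and PSMA4 were not called.

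**Figure D4:**
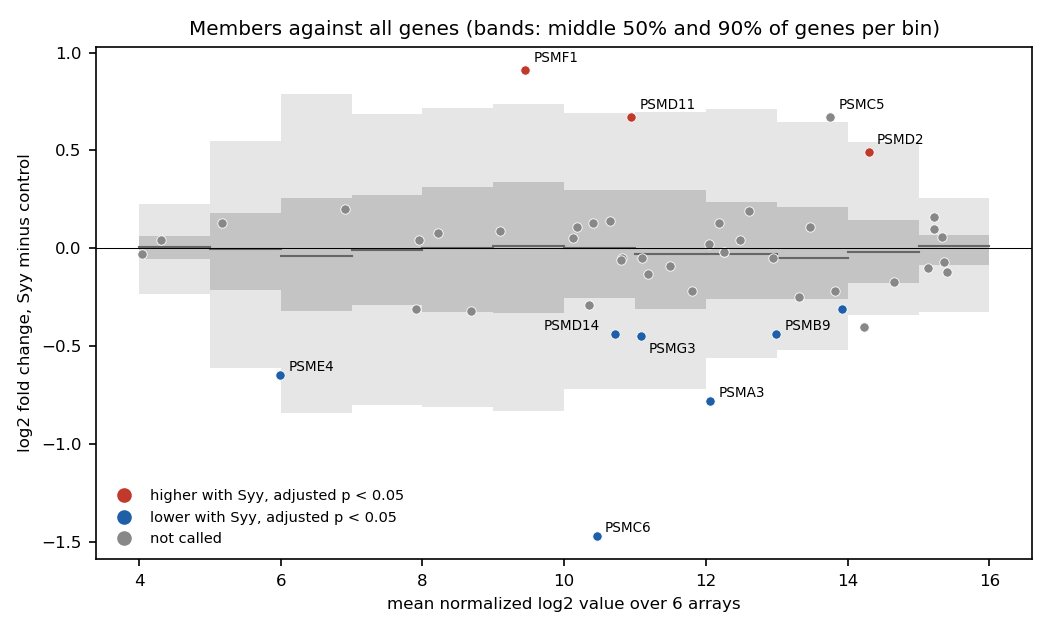
Log2 fold change (vertical axis) against the mean normalized log2 value over 6 arrays (horizontal axis) for the 49 members; the grey bands hold the middle 50% and 90% of all 18365 genes in each bin of level. PSMC6, PSMA3, PSMA4 and PSME4 lie below the wide band, PSMF1 and PSMC5 above it.

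Genes around the proteasome were taken from 5 lists, of which 46 of 51 genes were measured. Of these 6 rose and 8 fell (30.4% called), with a median of 0.06. Of all genes 22.4% were called, and of those above the median of all probes, where 41 of the 46 lie, 33.7%. Further cap and assembly factors had 2 of 9 members lower and none higher (22.2% called). ADRM1 (RPN13), a ubiquitin receptor of the cap, read 13.14, 13.25 and 13.18 with Syy and 13.63, 13.61 and 13.64 in the controls (-0.44, adjusted p = 0.0044). SHFM1, which encodes the small cap subunit DSS1, read 12.91, 12.75 and 13.00 with Syy and 13.49, 13.39 and 13.41 in the controls (-0.54, adjusted p = 0.00817). In both the Syy values lay clear below the controls, and both calls held in 14 of 15 alternatives; without Syy replicate 3 and control replicate 2 their adjusted p were 0.0582 and 0.0541. POMP, which matures the core, read 11.28, 11.77 and 12.04 with Syy and 12.35, 12.23 and 12.29 in the controls, and did not pass (-0.60, adjusted p = 0.0801); it passed without Syy replicate 3 (-0.77, adjusted p = 0.0353).

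The list of NRF1 and its handlers had 2 of 12 members higher and 3 lower (41.7% called). Of all genes 22.4% were called, and of those above the median of all probes, where 11 of the 12 lie, 33.7%. NFE2L1, for NRF1, read 11.39, 11.48 and 11.33 with Syy and 11.13, 11.04 and 10.97 in the controls (0.35, adjusted p = 0.0166). Its call held in 11 of 15 alternatives and was lost, among others, without control replicate 2 (0.35, adjusted p = 0.0627) or control replicate 3 (0.32, 0.0568). VCP, the ATPase that extracts ubiquitinated proteins, NRF1 among them, read 13.21, 13.31 and 13.15 with Syy and 12.61, 12.66 and 12.45 in the controls (0.65, adjusted p = 0.00502), and was called in all 15 alternatives. NFE2L2, for NRF2 (-0.52), NGLY1, which strips sugars from NRF1 (-0.38), and FBXW7, a ubiquitin ligase receptor of NRF1 (-0.45), fell. NFE2L2 (5.98 to 6.76) and FBXW7 (6.17 to 6.73) were not far above the floor, and their deposited intensities overlapped between the groups. NFE2L3, the nearest relative of NRF1, read 0.28 and did not pass (adjusted p = 0.0634), nor did DDI2, the protease that activates NRF1, which lay at the floor. The call of NFE2L2 held in 6 of 15 alternatives; it was lost after median centring (-0.38, adjusted p = 0.108), as deposited (-0.25, 0.315) and without any single array other than Syy replicate 3 (adjusted p from 0.0552 to 0.111). That of NGLY1 held in 7 of 15; it was lost after median centring (-0.22, adjusted p = 0.179), as deposited (-0.09, 0.669) and without Syy replicate 2 or any one control (adjusted p from 0.0556 to 0.096). That of FBXW7 held in 12 of 15; it was lost after median centring (-0.31, adjusted p = 0.0535), as deposited (-0.18, 0.256) and with the mean over its probes (-0.02, 0.885).

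Of the ubiquitin genes and activating enzymes, 3 of 6 were measured. UBA1, the main enzyme that activates ubiquitin, rose 1.90-fold, from 7.14, 7.19 and 7.30 in the controls to 7.97, 8.50 and 7.92 with Syy (adjusted p = 0.0142). UBB, a polyubiquitin gene, read 0.07 (adjusted p = 0.499). Among 11 shuttle and unfoldase genes 2 rose and 2 fell (36.4% called). The shares were 22.4% of all genes and 33.7% of those above the median of all probes, where 10 of the 11 lie. The VCP cofactors NPLOC4 (0.47) and FAF1 (0.39) rose, while UBXN1, another VCP cofactor (-0.73), and UBQLN1, which carries ubiquitinated proteins to the proteasome (-0.62), fell. The calls of UBXN1, UBA1 and FAF1 held in 13, 11 and 11 of 15 alternatives, and those of NPLOC4 and UBQLN1 in 8 each. NPLOC4 was not called without Syy replicate 3 (0.47, adjusted p = 0.0705).

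Class I antigen processing, which uses the peptides of the immunoproteasome, had 1 of 11 members higher and 1 lower (18.2% called, against 22.4% of all genes). TAP2, a subunit of the peptide transporter, read 5.68, 5.81 and 5.89 with Syy and 6.37, 6.30 and 6.56 in the controls (-0.62, adjusted p = 0.00873). These values were not far above the floor. TAPBP, which links the transporter to class I molecules, read 13.31, 13.48 and 13.22 with Syy and 12.90, 13.01 and 12.77 in the controls (0.44, adjusted p = 0.0239). TAP1, whose gene lies beside PSMB9, read 12.22, 12.19 and 12.06 with Syy and 12.29, 12.45 and 12.37 in the controls, below the controls without passing (-0.22, adjusted p = 0.0804). B2M, the light chain of class I molecules, read 0.09 and was not called. The call of TAP2 held in 14 and that of TAPBP in 9 of 15 alternatives.

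**Figure D5:**
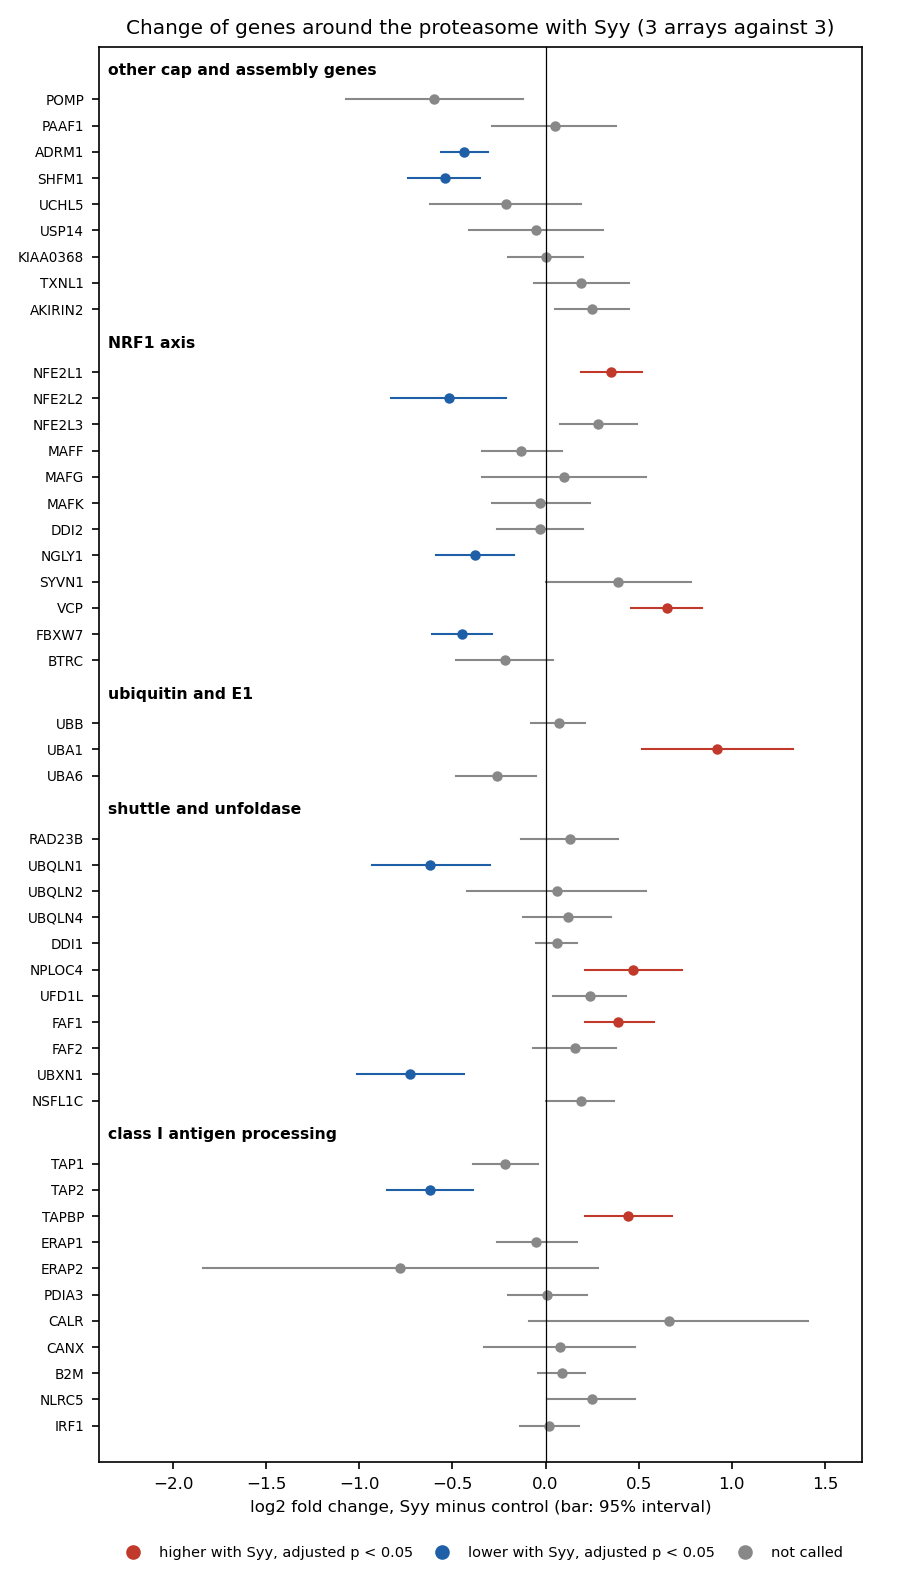
Log2 fold change (Syy minus control, horizontal axis) with its 95% interval for 46 genes outside the rule, grouped by list, from 3 arrays per group. UBA1, at 0.92, is the farthest called gene above 0 and UBXN1, at -0.73, the farthest called gene below; the intervals of ERAP2 and CALR are the widest.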

How the data were processed

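RNA of LX2 cells was measured on 6 one-channel arrays, 3 with Syy and 3 controls, grouped by the sample titles. The authors deposited 1 table of intensity values for 31741 probes, already scaled per array; no source used here states the background correction. Values divided by each array's scale factor (0.92 to 1.08) were whole scanner units, within 0.05, for 100% of probes. Symbols were those of the platform's annotation table, which may be dated: 24740 probes had 1 symbol, 977 several and 6024 none. Only single-symbol probes were used, with the brightest by mean for each of 18365 genes.

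Values were transformed to log2(value + 16), quantile normalized and tested in R 4.3.3 using limma 3.58.1 (eBayes after lmFit; two-sided; Benjamini-Hochberg over all genes; threshold 0.05). Precision is limited by the number of arrays. In simulated data with few changed genes, the script called 70% of rises and 66% of falls of 1 log2 unit. For changes of 0.5 it called 28% of rises and 23% of falls. With so few changed genes the adjusted threshold is stricter than in the real data, where 4121 genes were called. These shares may therefore be too low for the real data. A member that was not called may still have changed. All called members were named, with the catalytic, immunoproteasome and PA28 genes whatever their result, and called genes of the pathway lists. The members and lists were chosen with earlier results of these data known. The alternatives were 2 other scalings, 2 pseudocounts, a filter on dim genes, the mean over probes, a trended robust fit, a replicate block and arrays left out. Deviations of same-numbered arrays from their group means were not positively correlated, and the main fit did not use the numbers as pairs.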

Additional observations from a re-analysis of the deposited data

How the results depend on the processing

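Across 15 alternatives, 675 of 732 values of single members kept their side of the threshold, 40 lost a call and 17 gained one. Of the called values 0 turned direction. The 675 include 565 values uncalled in both fits, of which 44 changed sign. Of the 39 uncalled members 28 stayed uncalled in all 15. Members higher with Syy numbered 3 in the main setting, 6 in the values as deposited, and 2 to 3 with 1 array left out. Members lower numbered 7, against 13 after median centring, 2 when Syy replicate 3 and control replicate 2 were both left out, 1 with the replicate block, and 2 to 8 with 1 array left out. Over all genes, 2017 were higher, against 3155 as deposited, 1051 with the replicate block, 566 without those 2 arrays, and 1197 to 1787 with 1 array left out. The 2104 lower genes became 738 as deposited, 852 with the replicate block, 537 without those 2 arrays and 1088 to 1965 with 1 array left out. The higher share of calls was 48.9%, 60% after median centring and 81% as deposited, where the median of all genes moved from 0 to 0.08 and that of genes above the median of all probes to 0.19. With the replicate block, which assumes that numbers pair the arrays, PSMD11, PSMF1 and 1 lower member stayed called. Over genes above the median of all probes, deviations of same-numbered arrays from their group means correlated at -0.133, -0.0824 and -0.0419. With 3 arrays per group these values cannot decide whether the samples were paired. Fits that leave out arrays test fewer samples; for the other settings the cause was not tested. The 2-array setting was chosen with earlier results known. Dim members (PSMA8, PSMB11, PSMD9) lie near the floor, where a change could not be read, and they have no value under the filter on dim genes.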
